A study of Mus musculus with 64 samples.

Results

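A set of 10 transcription factors of striatal medium spiny neurons, Isl1, Ebf1, Sp9, Six3, Foxp1, Foxp2, Bcl11b, Meis2, Rarb and Foxo1, were followed in striatum punches of 16 mice. They were taken by symbol from the 23420 genes listed in the count files, with the reads of the 4 sequencing lanes of each mouse summed. All 10 factors passed the filter on low counts, which kept 16113 genes. The mice were F2 offspring of a C57BL/6NJ by C57BL/6J intercross, 69 to 100 days old at sacrifice. The N/N group was homozygous for the C57BL/6NJ allele, labelled mutant and binge-prone, and held 5 females and 3 males. The J/J group was homozygous for the C57BL/6J allele, labelled wild-type and binge-resistant, and also held 5 females and 3 males. These counts follow the sample labels, while the series description gives other numbers of females and males per genotype. Punches were taken on day 24, just after a 5 min session on the elevated plus maze, in both genotypes. The labels did not name the locus by which the genotypes were assigned, and in an F2 intercross the rest of the genome segregates within both groups.

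Medium spiny neurons are the GABAergic projection neurons that make up most of the striatum. Those of the direct pathway carry the dopamine receptor Drd1 and those of the indirect pathway carry Drd2. In mouse, Isl1 and Ebf1 act in the differentiation of direct pathway neurons and Sp9 and Six3 in that of indirect pathway neurons, while Foxp1, Bcl11b (Ctip2), Meis2 and Rarb are present in neurons of both pathways and Foxp2 is enriched in direct pathway neurons. Foxo1 is a forkhead factor regulated by insulin and growth factor signalling and is enriched in the striatum.

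Gene reads per mouse ranged from 27405386 to 51334152, and the factors were read 130 times (Ebf1, lowest mouse) to 16836 times (Meis2, highest mouse). Reads from Xist and Y-linked genes matched the labelled sex in 16 of 16 mice. The punches held striatal neurons: the 10 markers of medium spiny neurons of both pathways (among them Ppp1r1b, Rgs9, Pde10a, Adcy5, Gng7, Gnal, Scn4b, Rasgrp2 and Arpp21) summed to 6236 to 13548 CPM (counts scaled to a library of 1e+06 gene reads). They also held RNA of cortical glutamatergic neurons, whose 10 markers (among them Slc17a7, Emx1, Neurod6, Neurod2, Tbr1, Lamp5, Rorb, Cux2 and Fezf2) summed to 492 to 1765 CPM. Mouse 13, an N/N female, had the lowest value of its genotype for all 10 factors, and mouse 8, a J/J male, had the lowest value of its genotype for all 10. These 2 mice were the lowest 2 of all 16 for 9 factors, Six3 being the exception. Mouse 8 had the highest cortical marker score of the 16 mice, 6.04, and the lowest score of the markers of both pathways, 9.09. In mouse 13 these scores were 5.47 and 9.50, and its astrocyte and microglial scores were the highest of the 16. A score is the mean log2 CPM of a marker list. Results that rest on mice 8 and 13 are given with and without them, except for r within genotype or within sex.

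The promoter sequences of 4 factors are shown as examples that held binding letters of the factors' own families. Windows of Foxp1 also held such letters and are not printed. A part of these motifs in the co-variation of the 10 factors across mice was not tested. RefSeq windows of 300 bases on GRCm38.p6, from 250 bases before to 50 after a gene's start, were found for 9 of the 10 factors, all but Foxp2, as 12 windows. They were searched on both strands for 6 motifs: GGGCGG (the GC box of Sp factors), TGACAG (Meis), TGTTTAC (forkhead), TAATTA (homeodomain), TCCC and GGGA 2 bases apart (Ebf), and the retinoic acid direct repeat, GTTCA again after 6 bases. Capitals mark the matches. The window of Rarb (chr14:16575427-16575726, minus strand) held the direct repeat and a Meis motif, that of Six3 (chr17:85620584-85620883, plus strand) a Meis motif, that of Sp9 (chr2:73271676-73271975, plus strand) a GC box, and that of Foxo1 (chr3:52268087-52268386, plus strand) an Ebf motif, a Meis motif and 5 GC boxes, a pair of which overlap each other. No match of one motif overlapped a match of another.
Rarb: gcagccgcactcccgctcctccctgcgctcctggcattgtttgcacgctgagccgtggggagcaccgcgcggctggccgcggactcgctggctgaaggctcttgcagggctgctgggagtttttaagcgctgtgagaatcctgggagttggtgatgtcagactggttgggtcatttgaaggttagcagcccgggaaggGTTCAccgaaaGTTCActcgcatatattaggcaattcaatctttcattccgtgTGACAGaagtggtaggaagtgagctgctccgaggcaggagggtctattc
Six3: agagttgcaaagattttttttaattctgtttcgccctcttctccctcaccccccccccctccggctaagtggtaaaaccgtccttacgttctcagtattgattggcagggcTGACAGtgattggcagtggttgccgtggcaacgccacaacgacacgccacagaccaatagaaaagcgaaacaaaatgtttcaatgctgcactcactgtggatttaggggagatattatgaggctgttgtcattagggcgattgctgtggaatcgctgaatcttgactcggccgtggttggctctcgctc
Sp9: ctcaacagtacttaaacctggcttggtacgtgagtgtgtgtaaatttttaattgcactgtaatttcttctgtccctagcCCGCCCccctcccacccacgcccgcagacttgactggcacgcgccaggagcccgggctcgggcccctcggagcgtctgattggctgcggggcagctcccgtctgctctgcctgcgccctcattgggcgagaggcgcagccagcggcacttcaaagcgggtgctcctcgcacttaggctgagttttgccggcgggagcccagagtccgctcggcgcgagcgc
Foxo1: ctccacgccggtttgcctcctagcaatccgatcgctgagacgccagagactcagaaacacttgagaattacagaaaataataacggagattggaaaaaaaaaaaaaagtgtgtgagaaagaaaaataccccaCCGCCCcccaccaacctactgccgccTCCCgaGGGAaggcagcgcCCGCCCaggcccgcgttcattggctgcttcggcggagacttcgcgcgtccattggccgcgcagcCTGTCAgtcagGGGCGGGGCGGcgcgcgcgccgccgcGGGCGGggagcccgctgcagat

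The direct repeat stood in the window of Rarb, a retinoic acid receptor that is itself a textbook target of retinoic acid. It was searched only in the spelling that the Rarb window holds, and looser spellings were not searched, so the match in Rarb is not a finding. The same spelling stood in 25 of all 32851 windows (0.0761%). The GC box stood in 4 of the 12 windows of the factors and in 35.7% of all windows, and the Meis motif in 4 of the 12 and in 19.2% of all. The Ebf motif stood in 1 of the 12 and in 0.904% of all windows, the homeodomain motif in 1 of the 12 (a Foxp1 window) and in 5.29% of all, and the forkhead motif in 0 of the 12 and in 3.65% of all. A match describes the letters and is not a measured binding site. None of the 6 motifs was common to the windows of all 9 matched factors.

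The factors differed widely in level. Per kilobase of annotated exon, mean CPM over the 16 mice was 35.0 for Bcl11b and 30.6 for Meis2, 20.2 for Foxp1, 20.03 for Rarb and 11.2 for Foxo1. It was 5.82 for Six3, 4.36 for Foxp2, 2.63 for Isl1, 2.26 for Sp9 and 0.663 for Ebf1, against 61.4 for Drd1a (the name of Drd1 in the files) and 50.0 for Drd2. On this scale Bcl11b, Meis2, Foxp1, Rarb and Foxo1 stood above the 4 pathway factors, and Foxp2 lay between Six3 and Isl1. The exon lengths are the union of all GENCODE M21 exons of a gene and may overstate the transcript that was read. Neighbours in this order such as Foxp1 and Rarb, or Isl1 and Sp9, differed by less than the spread of either over mice.

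Each factor also varied widely between mice. The coefficient of variation of CPM over the 16 mice was 13.7% for Meis2, 17.6% for Foxp2, 17.7% for Rarb, 18.0% for Foxo1, and 18.5% for both Foxp1 and Bcl11b. It was 18.9% for Ebf1, 19.1% for Sp9, 21.6% for Isl1 and 22.1% for Six3. The median over all tested genes was 9.53%, and over those of at least 1 CPM it was 8.68%, and 67.5% (Meis2) to 84.1% (Six3) of tested genes varied less than a factor. The highest mouse exceeded the lowest by 1.61 times for Meis2 and by 2.17 times for Foxp2, with the other 8 factors between these.

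Both direct pathway factors overlapped between the genotypes, with higher means in N/N mice. Isl1 (chr13:116298281-116309689), a LIM homeodomain factor also made by cholinergic interneurons, had a lowest, median and highest value of 6.45, 11.7 and 13.5 CPM in the N/N mice, against 6.75, 10.6 and 11.7 CPM in the J/J mice. The 4 N/N mice above every J/J mouse were female 11 and the 3 males, and the rest of the N/N mice lay within or below the J/J range. Its log2 fold change (N/N relative to J/J, with sex in the model) was 0.10 (SE 0.16), with an edgeR quasi-likelihood adjusted p of 0.884. Ebf1 (chr11:44617317-45008091), a helix-loop-helix factor of the Ebf family, had 4.63, 7.73 and 8.03 CPM in the N/N mice, against 4.30, 5.97 and 6.85 CPM in the J/J mice. In all, 5 N/N mice, females 2 and 11 and the 3 males, lay above all J/J mice, while N/N females 4, 13 and 14 overlapped them. The log2 fold change of Ebf1 was 0.26 (SE 0.12, 95% interval 0.011 to 0.51), p = 0.0417 before and 0.712 after edgeR's adjustment over all 16113 genes. With the first lane of each mouse alone it was 0.041.

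Both indirect pathway factors also overlapped, again with higher means in N/N mice. Sp9 (chr2:73271925-73284706), a zinc finger factor of the Sp family, had 8.90, 12.4 and 15.3 CPM (lowest, median and highest) in the N/N mice, against 7.19, 10.3 and 12.4 CPM in the J/J mice. In all, 4 N/N mice lay above every J/J mouse, among them all 3 N/N males, and 1 J/J mouse, number 8, lay below every N/N mouse. The log2 fold change of Sp9 was 0.26 (SE 0.12, 95% interval 0.018 to 0.51), with an edgeR p of 0.0367 before and 0.712 after adjustment. Six3 (chr17:85613608-85629302), a homeodomain factor, had 24.1, 36.7 and 41.4 CPM in the N/N mice, against 19.1, 30.2 and 38.2 CPM in the J/J mice. The genotypes overlapped broadly, with 3 N/N mice above all J/J mice and 2 J/J mice below all N/N mice. Its log2 fold change was 0.26 (SE 0.15) with an edgeR adjusted p of 0.726. In the balance of the pathway factors, the log2 ratio of summed Isl1 and Ebf1 to summed Sp9 and Six3 CPM was -1.40 ± 0.13 in N/N mice, against -1.29 ± 0.17 in J/J mice (SD, n = 8 each). The log2 ratio of Drd1a to Drd2 was 0.75 ± 0.16 in N/N mice, against 0.89 ± 0.15 in J/J mice. For both ratios the genotypes overlapped. The factor ratio ran in opposite directions in the sexes, at -1.47 ± 0.088 in N/N females, against -1.25 ± 0.19 in J/J females (SD, n = 5 each), and -1.28 ± 0.11 in N/N males, against -1.37 ± 0.10 in J/J males (SD, n = 3 each). This difference between the sexes was not tested.

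Foxp1 (chr6:98925338-99522721), a forkhead repressor needed for striatal development in mouse, had 175, 289.6 and 348 CPM in the N/N mice, against 196, 273 and 318 CPM in the J/J mice. Foxp2 (chr6:14901349-15441977), its paralogue, known for its part in vocal learning, had 40.9, 75.4 and 88.7 CPM in the N/N mice, against 55.5, 69.0 and 82.8 CPM in the J/J mice. For both, the N/N range contained the whole J/J range, with mouse 13 at its low end. Bcl11b (chr12:107910403-108003602), a zinc finger factor that medium spiny neurons need to mature in mouse, had 213, 317 and 374 CPM in the N/N mice, against 187, 279 and 316 CPM in the J/J mice. Meis2 (chr2:115863064-116065839), a homeodomain factor of the developing striatum, had 291, 391 and 461 CPM in the N/N mice, against 285, 354 and 406 CPM in the J/J mice. A total of 4 N/N mice lay above all J/J mice for each of these 2 factors. Rarb (chr14:16430839-16819156), a retinoic acid receptor, had 76.4, 112 and 136 CPM in the N/N mice, against 75.6, 101 and 124 CPM in the J/J mice. Foxo1 (chr3:52268336-52353221) had 66.1, 108 and 120 CPM in the N/N mice, against 69.7, 94.7 and 111 CPM in the J/J mice. Both genotypes again overlapped over most of their ranges.

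The log2 fold changes of these 6 factors were 0.17 (SE 0.13) for Bcl11b, 0.15 (SE 0.13) for Foxo1, 0.12 (SE 0.12) for Rarb, 0.12 (SE 0.092) for Meis2, 0.099 (SE 0.14) for Foxp1 and 0.079 (SE 0.13) for Foxp2, with edgeR adjusted p of 0.7505 to 0.894. Thus 10 of 10 factors had a value above 0, as did 50.9% of all tested genes, and their median was 0.14, against 0.0017 over all genes. None of the 10 passed an adjusted p of 0.05, and the share of all genes that did was 0%. At an unadjusted p under 0.05 stood 2 of the 10 factors, Ebf1 and Sp9, and 6.8% of all genes (1095), while DESeq2 also called 0 genes after adjustment. The upper ends of the 95% intervals ran from a log2 fold change of 0.31 (Meis2) to 0.58 (Six3), so that differences of up to this size lay within the intervals at 8 mice a group. Without mice 8 and 13 all 10 values were above 0, with a median of 0.15. Without J/J mouse 8 alone the median was 0.078 and 0 of the 10 stood at an unadjusted p under 0.05, with 4.53% of all genes. Without N/N mouse 13 alone it was 0.21 and 4 of the 10 did, with 10.4% of all genes. The count at an unadjusted p under 0.05 was also 0 of the 10 without any 1 of N/N mice 2, 5, 11 and 12 or J/J mice 3 and 16, with 5.24% to 6.16% of all genes. Since the 10 values moved together from mouse to mouse, their common sign is not 10 separate observations. In bulk tissue, fewer cells of a type and less RNA per cell cannot be told apart.

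**Figure D1:**
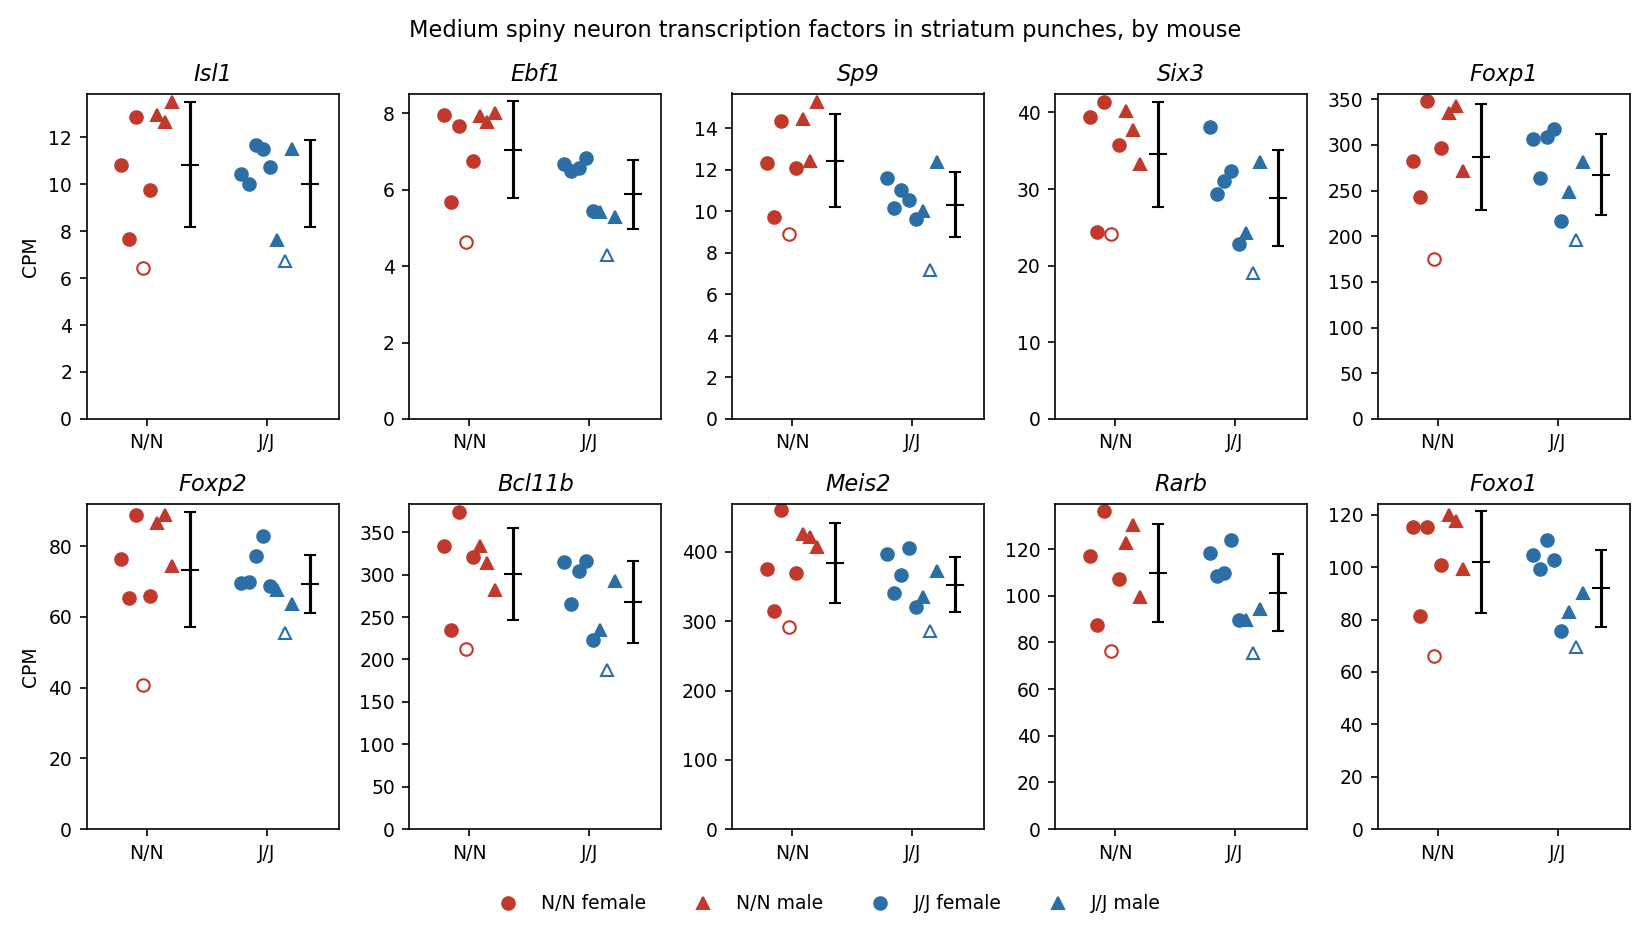
CPM (y axis, from 0) of each factor in each mouse, N/N in red and J/J in blue, females as circles and males as triangles, with the mean and SD of each genotype as a black bar (n = 8 each). Open symbols are N/N mouse 13 and J/J mouse 8, the lowest of their genotype in all 10 panels, and the genotypes overlap in every panel.

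Mean marker scores of other cells also differed between the genotypes, with overlap. The cortical score was 5.25 ± 0.42 in N/N mice, against 5.59 ± 0.25 in J/J mice (SD, n = 8 each), 10 of its 10 genes had a log2 fold change below 0 (median -0.28), and 0 were called. The score of the markers of both pathways was 9.85 ± 0.27 in N/N mice, against 9.68 ± 0.32 in J/J mice, with 10 of 10 genes above 0 and 0 called. The oligodendrocyte score was 8.04 ± 0.27 in N/N mice, against 7.88 ± 0.21 in J/J mice, with 8 of 8 genes above 0 and 0 called. With the cortical score as a covariate, 3 of the 10 factors kept a log2 fold change above 0, Ebf1 at 0.088, Sp9 at 0.085 and Six3 at 0.027. The other 7 turned to values of -0.031 (Bcl11b) to -0.16 (Isl1), and the median of the 10 became -0.044. The part of the punches' cell mixture in the genotype difference was not tested beyond this fit.

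Within males all 10 factors had higher means in N/N, and 7 did not overlap. Ebf1 had 7.93, 7.78 and 8.03 CPM in the 3 N/N males (mice 5, 9 and 12), against 5.42, 4.30 and 5.28 CPM in the 3 J/J males (mice 3, 8 and 15). Isl1 had 12.9, 12.6 and 13.5 CPM in the N/N males, against 7.63, 6.75 and 11.5 CPM in the J/J males. In both, the N/N males stood close together and above every J/J male. Sp9 had 14.4, 12.4 and 15.3 CPM in the N/N males, against 10.03, 7.19 and 12.4 CPM in the J/J males, so that N/N mouse 9 and J/J mouse 15 almost met. Foxp2 had 86.5, 88.7 and 74.3 CPM in the N/N males, against 67.6, 55.5 and 63.7 CPM in the J/J males. Rarb had 123, 130 and 99.7 CPM in the N/N males, against 89.8, 75.6 and 94.4 CPM in the J/J males. Together with Meis2 and Foxo1 these were the 7 factors whose N/N males all lay above all J/J males, against 8.81% of all genes. For Six3, Foxp1 and Bcl11b, N/N mouse 12 lay below J/J mouse 15.

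The log2 fold change in males was 0.66 (SE 0.16) for Ebf1, 0.60 (SE 0.21) for Isl1, 0.53 (SE 0.24) for Six3 and 0.51 (SE 0.18) for Sp9. It was 0.34 to 0.47 for the other 6, and the median of the 10 was 0.46, against 0.0057 over all genes. With the first lane alone Ebf1 had 0.41 in males, and 5 of the 10 and 9.50% of all genes stood at an unadjusted p under 0.05. None of the 10 passed edgeR's adjustment, the lowest adjusted p being 0.4005, and the share of all genes called was 0% (DESeq2 called 4 genes, none of them a factor). At an unadjusted p under 0.05 stood 8 of the 10, all but Foxp1 and Bcl11b, and 11.3% of all genes. Without J/J mouse 8, 1 of the 10, Ebf1 with a log2 fold change of 0.56, stood at an unadjusted p under 0.05, with 4.95% of all genes, and the median of the 10 was 0.34. Without both mouse 8 and mouse 13 the median was also 0.34, and 5 of the 10 and 6.25% of all genes stood at an unadjusted p under 0.05. Without N/N mouse 11, a female, 8 genes were called in males, none of them a factor. Mice 11 and 13 are females, so leaving them out removed no male. The fit pools its estimate of the spread over all groups, so that p in males can still change. The cortical score averaged 5.21 in N/N males, against 5.84 in J/J males, with no overlap, 10 of its 10 genes had values below 0 in males (median -0.72), and 6 of the 10 stood at an unadjusted p under 0.05. The oligodendrocyte score averaged 8.17 in N/N males, against 7.71 in J/J males, also with no overlap, and 7 of its 8 genes stood at an unadjusted p under 0.05. The median log2 fold change in males was 0.44 for the markers of both pathways, 0.45 for those of the direct and 0.59 for those of the indirect pathway. With the cortical score as a covariate, all 10 factors kept values above 0 in males, with a median of 0.15, Ebf1 at 0.43 and Bcl11b at 0.038, and 1 of the 10 and 2.33% of all genes stood at an unadjusted p under 0.05. The part of the other cells in the values of males was not tested beyond this fit.

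Within females no direction was shared in the fit without a covariate. Ebf1 had 4.63, 6.75 and 7.96 CPM (lowest, median and highest) in the 5 N/N females, against 5.45, 6.58 and 6.85 CPM in the 5 J/J females, and Isl1 had 6.45, 9.74 and 12.9 CPM in the N/N females, against 9.9995, 10.7 and 11.7 CPM in the J/J females. For both, the N/N females reached below and above the J/J females, with mouse 13 lowest and mice 2 (Ebf1) and 11 (Isl1) highest. Foxp2 had 40.9, 66.0 and 88.7 CPM in the N/N females, against 68.6, 69.9 and 82.8 CPM in the J/J females. The log2 fold changes ran from -0.20 (Isl1) to 0.11 (Sp9), 4 of 10 were above 0, and the median was -0.029. None was called and the share of all genes called was 0%, with 0 of the 10 and 4.41% of all genes (711) at an unadjusted p under 0.05. Without N/N mouse 13, 9 of 10 values lay above 0, and without N/N mouse 11, 2 of 10 did, so the count of signs in females rests on single mice. With the cortical score as a covariate, 1 of 10 lay above 0, with a median of -0.11 and a range of -0.32 to 0.024. In that fit 1 of the 10 and 7.06% of all genes stood at an unadjusted p under 0.05.

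**Figure D2:**
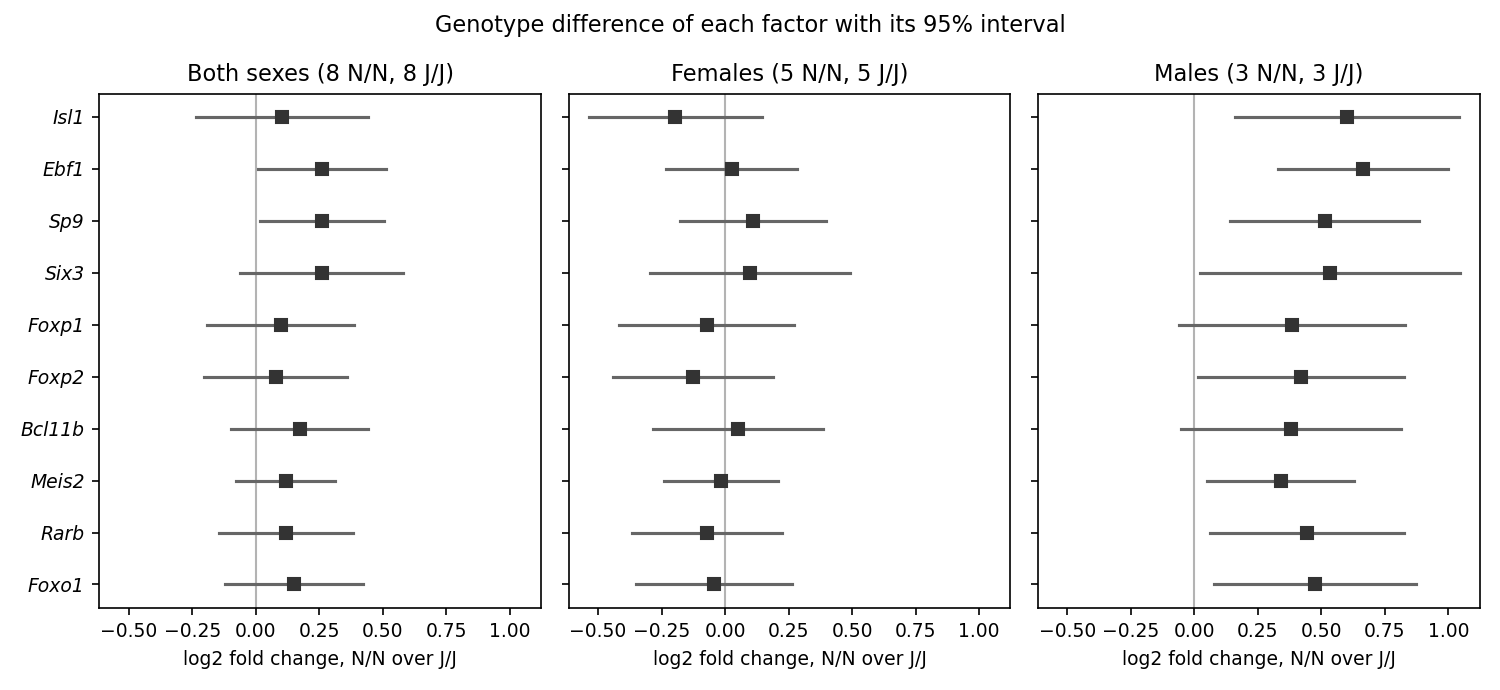
Log2 fold change, N/N relative to J/J (x axis), for each factor (y axis) from edgeR, with its 95% interval, over all 16 mice, in females and in males. All 10 squares lie right of 0 in males (0.34 to 0.66), while in females they scatter from -0.20 to 0.11.

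The difference between the sexes was itself tested. The genotype difference in females minus that in males was below 0 for 10 of 10 factors, from -0.33 (Bcl11b) to -0.80 (Isl1), with Ebf1 at -0.64 (SE 0.20). At an unadjusted p under 0.05 stood 5 of the 10, Ebf1 (0.0054), Isl1 (0.0079), Rarb (0.0381), Foxp2 (0.0394) and Foxo1 (0.0446), and 6.94% of all genes. None passed edgeR's adjustment (lowest adjusted p of the factors 0.692), and the share of all genes called was 0%. Without N/N mouse 11, 66 genes were called, none of them a factor, and 8 of the 10 stood at an unadjusted p under 0.05, with 15.2% of all genes. Without any 1 of N/N mice 4, 5 and 9 or J/J mice 7, 8 and 10, 2 of the 10 did, with 3.65% to 5.71% of all genes. With the cortical score as a covariate 2 of the 10 and 2.79% of all genes did, and the median of the 10 was -0.27, against -0.49 without it. Without mice 8 and 13, 3 of the 10 and 3.19% of all genes stood at an unadjusted p under 0.05, and the values ran from -0.086 to -0.54. Between females and males of both genotypes the factors hardly differed, with 5 of 10 above 0, log2 fold changes of female over male of -0.098 (Sp9) to 0.093 (Bcl11b), and none among the 9 genes called (0.0559% of all genes).

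Across mice the 10 factors went up and down together. All 45 pairs had a Pearson r of log2 CPM above 0 over the 16 mice, from 0.67 for Sp9 with Foxp2 to 0.97 for Six3 with Bcl11b, with a median of 0.87. Over all pairs of tested genes the median r was -0.003, with quartiles of -0.241 and 0.238, and 0.0956% of those pairs exceeded 0.87. Permutation p adjusted over the 45 pairs passed 0.05 for all 45, by Pearson's r and by Spearman's rho, and many stood at 1e-05, the smallest p that the 100000 permutations can give. Sp9 with Foxp2 had r = 0.67 (permutation p = 0.0053, adjusted 0.0053) and rho = 0.66 (adjusted p 0.0075), and Six3 with Bcl11b had rho = 0.94 (adjusted p 7.5e-05). With the 2 mice farthest from the median of the first gene left out, all 45 stayed above 0, with a median of 0.81 and a lowest value of 0.62 (Isl1 with Foxp1). Without mice 8 and 13 the median was 0.78. The values of one mouse share its library, its depth and its mixture of cells.

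Pairs within a pathway and pairs across the pathways had similar r. Isl1 and Ebf1, the direct pathway pair, had r = 0.83 (rho = 0.78, adjusted p 0.00015 for r and 0.0011 for rho, r = 0.67 without the 2 farthest mice). Sp9 and Six3, the indirect pathway pair, had r = 0.88 (rho = 0.87, adjusted p 1.8e-05 and 0.00013, r = 0.91 without the 2 farthest mice). Across the pathways, Isl1 had r = 0.85 with Sp9 and 0.79 with Six3, and Ebf1 had 0.86 with Sp9 and 0.87 with Six3. The order of these values was not tested. Among the 10, Bcl11b had the highest median r with the other factors, 0.92, and Isl1 and Foxp2 the lowest, 0.83 each. Foxp2 had r = 0.67 with Sp9 and with Six3, and 0.89 with its paralogue Foxp1.

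**Figure D3:**
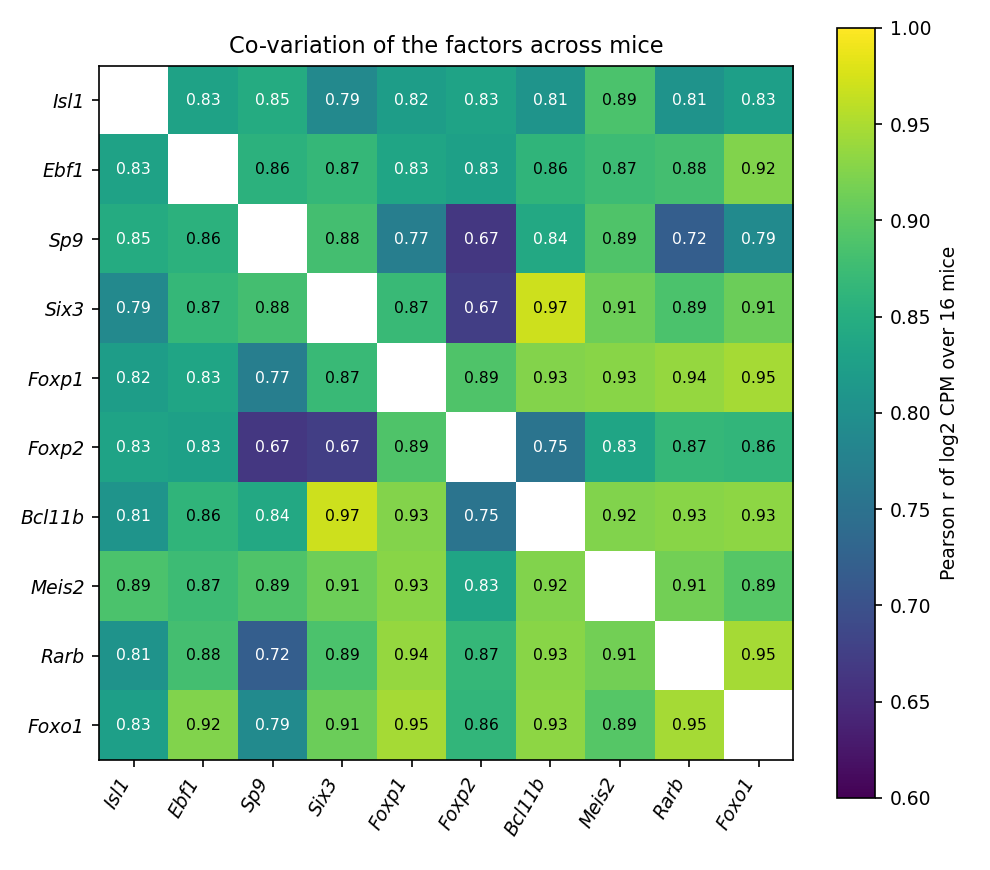
Pearson r of log2 CPM over the 16 mice for each pair of factors (both axes list the factors, and colour gives r from 0.6 to 1). Every pair lies at 0.67 or more, and the darkest pairs of Foxp2, with the lowest r, are those with Sp9 and Six3.

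The same held within genotype and within sex. The median r of the 45 pairs was 0.91 over the 8 N/N mice and 0.85 over the 8 J/J mice, and 0.88 over the 10 females and 0.92 over the 6 males. All 45 pairs were above 0 in each of these 4 sets of mice, the lowest being 0.56 in J/J. The N/N mice and the females include mouse 13, and the J/J mice and the males include mouse 8. No r within these sets is given without them. After regression of each factor on the cortical score the median r was 0.73, with 45 of 45 pairs above 0 (0.37 to 0.93). After regression on the score of the markers of both pathways, chosen after the values were seen, it was 0.55, with 44 of 45 above 0 and a range of -0.083 to 0.84. The median r was thus lower on residuals from either score than on the values themselves.

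Against marker scores, 130 relations of the 10 factors with 13 lists were computed, none of which contains a factor, and 55 passed an adjusted permutation p of 0.05. With the markers of both pathways all 10 factors passed, from r = 0.70 for Foxp2 (rho = 0.76, adjusted p 0.0072 for r and 0.0036 for rho) to r = 0.96 for Bcl11b (rho = 0.87, adjusted p 8.7e-05 and 0.00037). Without the 2 mice farthest in the score these values were 0.68 and 0.95. With the direct pathway markers r ran from 0.81 (Foxp2) to 0.92 (Six3), and with the indirect pathway markers from 0.78 (Foxp2) to 0.98 (Bcl11b), and all 20 relations passed. With the receptors themselves all 20 relations passed, from r = 0.81 (Sp9) to 0.97 (Foxp1) for Drd1a and from 0.65 (Foxp2) to 0.96 (Bcl11b) for Drd2. Isl1 had r = 0.89 with Drd1a and 0.75 with Drd2, Ebf1 0.89 and 0.82, Sp9 0.81 and 0.81, and Six3 0.92 and 0.94. The log2 ratio of the direct to the indirect pathway factors had r = 0.62 with that of Drd1a to Drd2 (permutation p = 0.0093) but rho = 0.45 (permutation p = 0.084). Without the 2 mice farthest in the receptor ratio r was 0.32, so that this relation rests on those mice.

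The cortical score ran against the factors. All 10 had r below 0, from -0.79 for Meis2 (rho = -0.79, adjusted p 0.00072 for r and 0.0025 for rho) to -0.59 for Foxp2, and 9 passed. Foxp2 had an adjusted p of 0.0561 for r but 0.00096 for rho (-0.83), and without N/N mouse 13, where it was low beside a mid-range cortical score, r was -0.84. Foxp1 passed over all 16 mice (r = -0.62, adjusted p 0.025), but not without J/J mouse 8 (r = -0.53, adjusted p 0.105) or N/N mouse 11 (r = -0.59, adjusted p 0.0512). Without the 2 mice farthest in the cortical score, r ran from -0.46 (Foxp1 and Foxp2) to -0.74 (Ebf1). Within genotype the median r of the 10 factors was -0.64 in N/N, against -0.82 in J/J, and within sex -0.64 in females and -0.93 in males.

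Markers of some other cell types also moved with the factors, and no test compared the lists. With oligodendrocyte markers 9 of 10 passed, all but Six3, with r of 0.57 (Six3) to 0.77 (Ebf1). By rho 6 of 10 passed, and Sp9 (adjusted p 0.098), Bcl11b (0.141) and Meis2 (0.0567) did not either. Without the 2 mice farthest in the oligodendrocyte score r ran from 0.32 (Six3) to 0.70 (Foxp2). With markers of cholinergic interneurons (among them Chat, Slc5a7, Slc18a3, Lhx8 and Gbx2) 6 of 10 passed, and without the 2 mice farthest in that score r of these 6 ran from 0.33 (Foxp1) to 0.69 (Six3). Six3 had the highest of these, r = 0.83 (rho = 0.84, adjusted p 0.00060 for r), and Isl1, which those interneurons make, had r = 0.43 (adjusted p 0.185). With markers of GABAergic interneurons, oligodendrocyte precursors, microglia, endothelium, mural cells and choroid plexus 0 of 10 passed. For GABAergic interneurons r ran from 0.10 to 0.50, and without the 2 mice farthest in that score from 0.29 (Foxp2) to 0.61 (Bcl11b). For microglia it ran from -0.36 to 0.31, and without the 2 farthest from 0.27 (Foxp2) to 0.62 (Sp9). No p was computed for r without the 2 mice. With astrocyte markers 1 of 10 passed, Foxp2 at r = -0.63 (adjusted p 0.0411). That relation rests on the mice at the ends of the astrocyte score, of which N/N mouse 13 had the highest, since without the 2 farthest r was -0.26, and rho over all mice was -0.30 (adjusted p 0.46). Ebf1, also known from vascular mural cells, had r = -0.06 with mural and 0.03 with endothelial markers, and Foxo1, also active in endothelium, had r = 0.04 with endothelial markers.

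**Figure D4:**
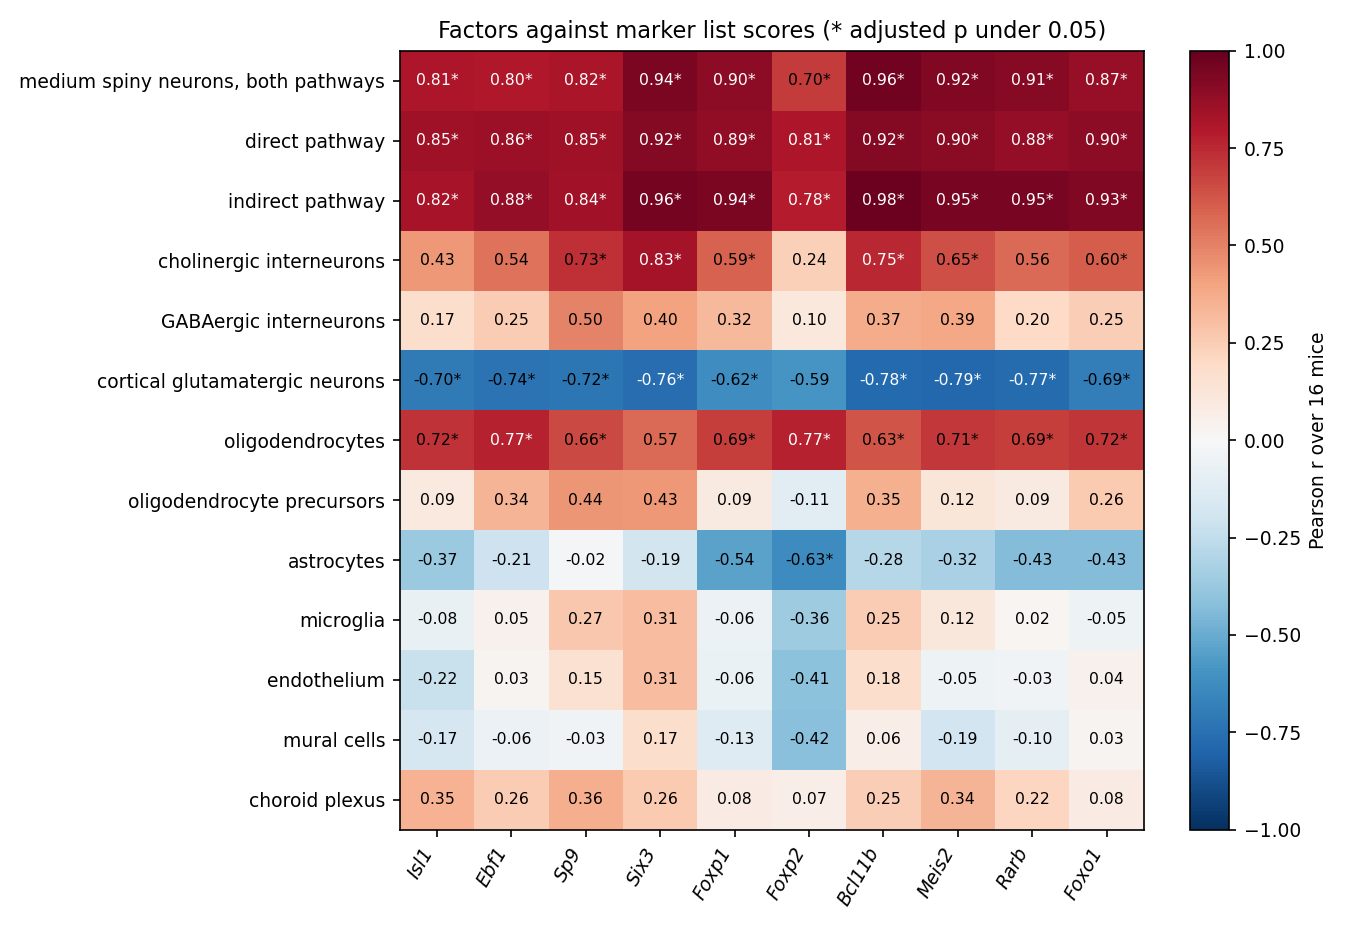
Pearson r over 16 mice of each factor (x axis) with the mean log2 CPM of each marker list (y axis), with an asterisk where the permutation p adjusted over the 130 relations was under 0.05. The medium spiny neuron and pathway lists are dark red for all 10 factors (0.70 to 0.98) and the cortical list is blue for all 10 (-0.79 to -0.59).

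**Figure D5:**
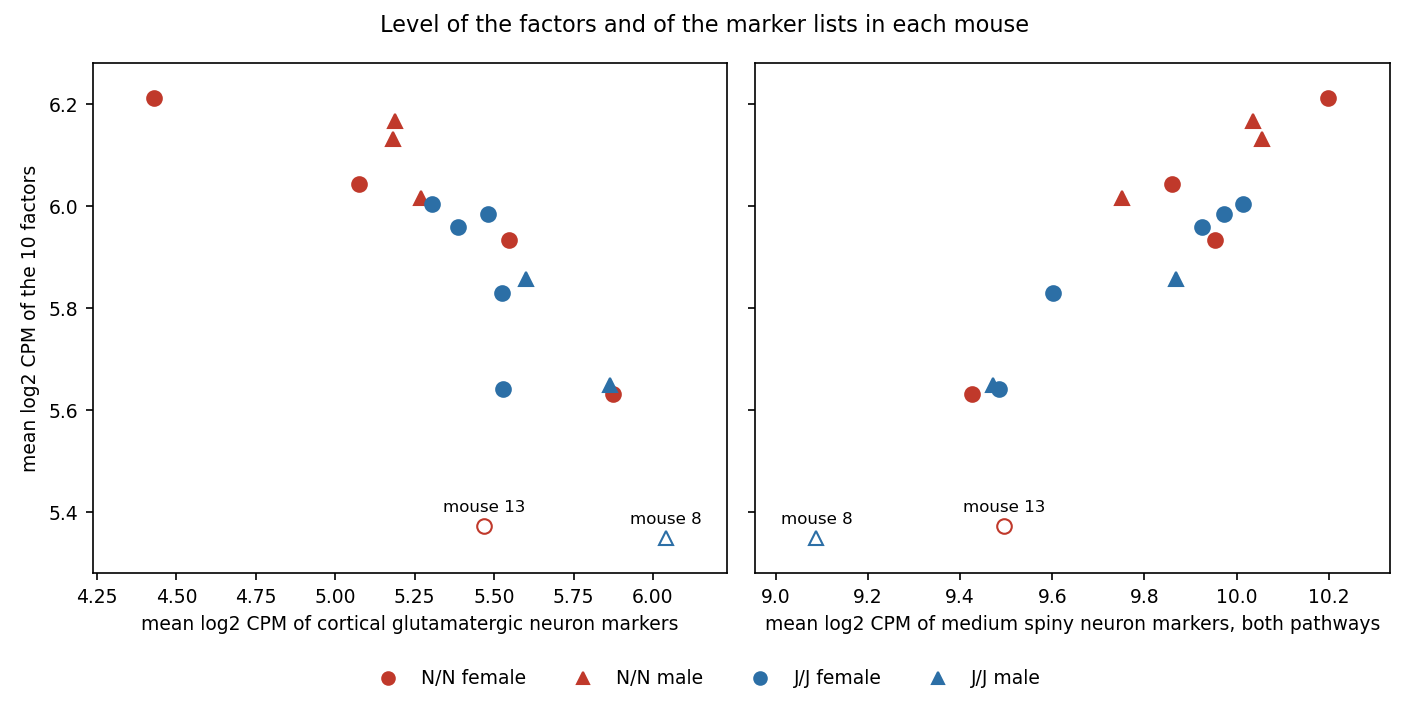
Mean log2 CPM of the 10 factors (y axis) against the cortical marker score (left) and the score of the markers of both pathways (right) in each mouse, coloured and shaped by genotype and sex, with mice 8 and 13 as open symbols. The factors tend to be high where cortical markers are low, with scatter between mice, and in mouse 13 they are low beside a mid-range cortical score. They also tend to be high where medium spiny neuron markers are high.

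By Pearson r over the 16 mice, the gene outside the set that was most like each factor was Ppp1r7 for Isl1 (0.91) and for Meis2 (0.96), Klhl13 for Ebf1 (0.91), Dlx5 for Sp9 (0.94) and Penk for Six3 (0.98). It was Ppp3ca for Foxp1 (0.98), Neto1 for Foxp2 (0.96), Gnal for Bcl11b (0.98), Gpr52 for Rarb (0.97) and Pard3 for Foxo1 (0.97). Next were Clip4 and Inpp5f for Isl1, Pard3 and Adamts4 for Ebf1, Cacna2d2 and Slc32a1 for Sp9, Zswim5 and Pde1b for Six3, St8sia3 and Syt6 for Foxp1, Inpp5f and Galnt13 for Foxp2, Cacng4 and Lrba for Bcl11b, Stk32a and Pcp4l1 for Meis2, Stk32a and Zswim6 for Rarb, and Kcna4 and Drd1a for Foxo1, with r of 0.91 to 0.98. Penk, the enkephalin precursor of indirect pathway neurons, and Gpr52, an orphan receptor, are themselves on the marker lists. So is Gnal, the G protein subunit that couples the dopamine receptor Drd1 to adenylyl cyclase. Among the 50 genes most like each factor, Drd1a stood for 9 of the 10, all but Sp9, and Gnal for 8, all but Foxp1 and Foxp2. Indirect pathway markers stood there for all but Foxp2. Direct pathway markers other than Drd1a stood there for Isl1, Ebf1, Sp9, Foxp2, Meis2 and Foxo1, and no test compared the pathways.

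Other transcription factors of the striatal lineage were tested alongside. Of 15 listed (among them Dlx1, Dlx2, Dlx5, Dlx6, Gsx2, Ikzf1, Ikzf2, Zfp503, Zfp521, Tshz1, Sp8, Pbx3 and Rxrg), 14 were tested, 13 lay above 0 in the genotype comparison, with a median log2 fold change of 0.17, and 0 were called. Among those with the smallest p, Zfp521 had a log2 fold change of 0.18 (edgeR adjusted p 0.712), and Dlx5, a homeodomain factor of GABAergic neurons, had 0.22 (adjusted p 0.723). Of 15 paralogues and neighbours of the factors, 13 were tested, 8 lay above 0 with a median of 0.021, and 0 were called. Six3os1, the opposite-strand transcript beside Six3, had a log2 fold change of 0.37 (adjusted p 0.712) with 13.9 ± 3.81 CPM in N/N mice, against 10.7 ± 1.75 CPM in J/J mice (SD, n = 8 each). Meis1 had 0.35 (adjusted p 0.715) and Foxo4 0.054 (adjusted p 0.810).

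Features of position bear on single factors. Ebf1 lies on chromosome 11, 1.19 Mb from Cyfip2 (chr11:46193850-46312859), a gene that carries a known coding difference between these substrains. The locus of selection is not stated in the labels, and a part of linked alleles in the values of Ebf1 was not tested. Rarb shares 1793 exon bases with Top2b on the opposite strand, Sp9 shares 270 with Cir1 and Six3 shares 106 with Six3os1. No source used here gives the strand setting of the counting, and reads of these genes and their partners may not be separable.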

How the data were processed

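Total RNA of striatum punches went into a stranded mRNA library kit, and each library was read on 4 lanes (single 50-base reads), per the labels' protocols. The deposited files hold raw read counts per gene, made by the authors with TopHat2 2.1.0 (build mm10) and HTSeq 0.6.1p1, per the submitters' processing notes. Annotation release and strand setting: not given in the sources used here. Of all counts deposited, 42.6% lay in lines that name no gene (19.9% in no feature, 21.8% not uniquely aligned, 0.78% ambiguous). These are shares of the summed counts, not of sequenced reads, and such lines stayed out of library sizes and tests.

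The 4 lanes of a mouse were summed, which gave 27405386 to 51334152 gene reads per mouse. The mouse was the replicate and lanes were technical. Mice 10 (J/J) and 11 (N/N) share a cage label, and no batch label separates the mice. N/N and J/J carry no shared replicate numbers, so no pairing exists.

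Counts were tested with edgeR 4.0.16 in R 4.3.3 (TMM factors of 0.970 to 1.025, filterByExpr with a minimum count of 10 and total of 15, robust quasi-likelihood F test, Benjamini-Hochberg over 16113 genes, threshold 0.05). Genotype and sex were tested in an additive model, and the interaction and the contrasts within sex in a model of 4 group means. The common coefficient of biological variation was 10.2%. Intervals are 95%. CPM use TMM library sizes and log2 CPM a prior count of 2. Correlations have two-sided p from 100000 permutations, adjusted within each family (45 pairs, 130 list relations, 20 receptor relations, 1 ratio). The tests were tried on simulated data.

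Gene positions came from GENCODE M21 (GRCm38, the assembly of mm10), promoters from RefSeq GRCm38.p6. The factors and lists were chosen with earlier results of these data known. Named genes were the 10 factors, the 3 most alike genes of each, the 3 smallest genotype p of both transcription factor lists, Drd1a, Drd2, and Cyfip2 for its position. A gene that this rule names and some genes of the lists are not reported here by name. Alternatives were RLE or no scaling factors, DESeq2 1.42.0, limma-voom (limma 3.58.1), other count filters, a non-robust fit, 1 lane, no sex term, a cortical covariate, another prior count, deviations from group means, residuals, and leaving out each mouse.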

Additional observations from a re-analysis of the deposited data

How the results depend on the processing

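Under every alternative run, 0 of the 10 factors were called in any comparison, and the genotype test called 0 genes. The count of called genes moved elsewhere. For the interaction it was 1 with DESeq2 and 1 with no low-count filter, against 0 as reported, and 0 to 66 when single mice were left out, with 66 without N/N mouse 11 and 1 without N/N mouse 5. In males DESeq2 called 4, and leaving out mice gave 0 to 8, with 8 without N/N mouse 11. For sex 5 genes were called with a filter of 1 CPM in 8 mice, against 9, and 8 to 10 when mice were left out. The cause was not tested. The median r of the 45 pairs was 0.73 on residuals from the cortical score and 0.55 on residuals from the score of both pathways, against 0.87. Leaving out mice gave 0.78 to 0.89, with the lowest value without both N/N mouse 13 and J/J mouse 8. The residuals from the score of both pathways, the fits without both mice and the cortical covariate outside the genotype test were chosen after seeing the data. The list relations that passed numbered 46 to 58 when mice were left out, against 55. No paired analysis was possible because the genotypes share no replicate numbers.

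Signs near 0 turned in some fits. With the cortical covariate the genotype values became -0.16 (Isl1), -0.089 (Foxp1), -0.11 (Foxp2), -0.031 (Bcl11b), -0.049 (Meis2), -0.090 (Rarb) and -0.038 (Foxo1). The sex values became -0.053 (Ebf1), -0.060 (Six3), -0.0036 (Bcl11b), -0.015 (Rarb) and -0.066 (Foxo1), and the values in females -0.043 (Ebf1), -0.025 (Six3) and -0.058 (Bcl11b). With the first lane alone the genotype value of Ebf1 over both sexes was 0.041. In females Ebf1 was -0.0089 with limma-voom and -0.17 with the first lane alone, where Meis2 was 0.011. When mice were left out, values in females ran from -0.056 to 0.12 (Ebf1), -0.18 to 0.048 (Foxp1), -0.24 to 0.0091 (Foxp2), -0.050 to 0.15 (Bcl11b), -0.12 to 0.054 (Meis2), -0.18 to 0.022 (Rarb) and -0.13 to 0.064 (Foxo1). For these 7 the high end was without N/N mouse 13. The sex values ran from -0.057 to 0.091 (Ebf1), -0.057 to 0.11 (Six3), -0.095 to 0.061 (Foxp1), -0.11 to 0.043 (Foxp2), -0.099 to 0.0080 (Meis2) and -0.054 to 0.088 (Foxo1). No genotype value over both sexes changed sign when mice were left out, and the lowest, 0.0083 for Isl1, was without J/J mouse 8. Depth differed widely between the factors, with 130 to 292 reads a mouse for Ebf1, and detectability by read number was not tested.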
